A study of Mus musculus with 2 samples.

Results

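The regions described here are the peaks that the authors' annotation placed in exons, in 3' UTRs or just downstream of genes, in the retina of mice with and without chronic ocular hypertension (COH), in which raised intraocular pressure serves as a glaucoma model. They were chosen by the text of that annotation alone, as every peak whose class was exon, 3' UTR or downstream. There were 160 of them among the 3078 peaks of the control library (5.2%, 4.44 to 6.04) and 82 among the 1711 peaks of the COH library (4.79%, 3.83 to 5.91). CUT&Tag was used, a method that brings the Tn5 transposase to chromatin through an antibody and inserts adapters around the sites it marks. The antibody recognised Rac1, a small GTPase known for its part in actin remodelling. No control-antibody library was analysed here. The control library came from retina with no treatment, and the COH library from retina collected at 1 week of COH. Both came from wild-type C57BL/6 mice 7 weeks old, and nuclei of the whole retina were used, so no cell type can be told from another. How many animals went into a library is not given in the sources used here. As each group is 1 library, the spread between replicates is unknown and the conditions were not tested against each other. The brackets after a percentage are exact Clopper-Pearson 95% intervals that cover counting error only.

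An exon is a stretch of a gene kept in the mature RNA, and the first exon holds the transcription start site (TSS). The 3' UTR is the end of a messenger RNA beyond its coding part, and downstream here means within a few kilobases beyond a gene's end. Chromatin assays most often give signal at promoters, and a peak classed as exonic can lie at the edge of a promoter as well as deep inside a gene. The deposited annotation names a host transcript and exon number for most exonic peaks. For 3' UTR and downstream peaks it gives no host. It also assigns each peak to the gene whose start is nearest, and this can be another gene than the host.

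Short reference sequences of some named hosts are given as a description, and the sequence of the peaks themselves was not used. Among the host transcripts was 1 microRNA gene, Mir210, which gives a microRNA known for its induction by low oxygen. In the control library a peak of 689 bp lay on its exon, with pileup 27 and fold 4.19, 5517 bp from the start of Rassf7. The mature sequences, from RefSeq (GRCm38.p6) on the minus strand at chr7:141221407-141221428 (3p) and chr7:141221445-141221466 (5p), are given 5' to 3', with the seed (bases 2 to 8) in capitals.
mmu-miR-210-3p: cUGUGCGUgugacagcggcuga
mmu-miR-210-5p: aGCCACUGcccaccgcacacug

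Many of the other exonic peaks began just past a gene's start. For the 4 protein-coding hosts whose peak began less than 100 bp past the start and whose gene length in the lists was within 10 bp of that in RefSeq, the 30 bases just before the RefSeq start follow, 5' to 3' on the gene's strand. CpG dinucleotides are in capitals. Acot2, a mitochondrial acyl-CoA thioesterase, and Kbtbd13, a BTB-Kelch protein, had their peaks in control. Psmd11, a proteasome lid subunit, and Ntan1, an amidase of the N-degron pathway, had theirs in COH. The stretches are from GRCm38.p6, at chr12:83987831-83987860 on the plus strand for Acot2, chr9:65391653-65391682 on the minus strand for Kbtbd13, chr11:80428585-80428614 on the plus strand for Psmd11 and chr16:13819221-13819250 on the plus strand for Ntan1.
Acot2: gcaggcagctggccactagaggatctctta
Kbtbd13: CGgcagcagcctccacccctctggctcatc
Psmd11: taggaaCGCGagggCGggtcttcCGggtgt
Ntan1: ggactacacatcCGggcCGagtcCGCGgtg
The Psmd11 and Ntan1 stretches hold 4 CpG each, that of Kbtbd13 1 and that of Acot2 0. The peaks began 53 bp past the start of Acot2, 75 bp past Kbtbd13, 96 bp past Psmd11 and 13 bp past Ntan1, with folds of 5.03, 4.42, 5.21 and 5.10. The Ntan1 gene also had a control peak, in its 5' UTR, 424 bp past the start with a pileup of 20, which did not overlap the COH peak.

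Exons carried most of these peaks in both libraries. In control 127 were exonic, 22 lay in 3' UTRs and 11 downstream, and in COH 61, 14 and 7. As a group they were weaker than the rest of their list. The median fold enrichment over background, as given by the authors' peak caller, was 4.65 (4.51 to 4.92) against 5.28 for all other control peaks, and 4.64 (4.42 to 4.97) against 5.48 in COH. When each list was cut into 5 bins of equal size by fold, the lowest bin held 61 of the 160 control peaks (38.1%, 30.6 to 46.1) and 37 of the 82 COH peaks (45.1%, 34.1 to 56.5). The highest bin held 15 and 5. Their median pileup, the height of the stacked fragments, was 15 in control, where the whole list had 17, and 16 in COH, where the whole list also had 16. Their median length was 392 bp and 385 bp.

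**Figure D1:**
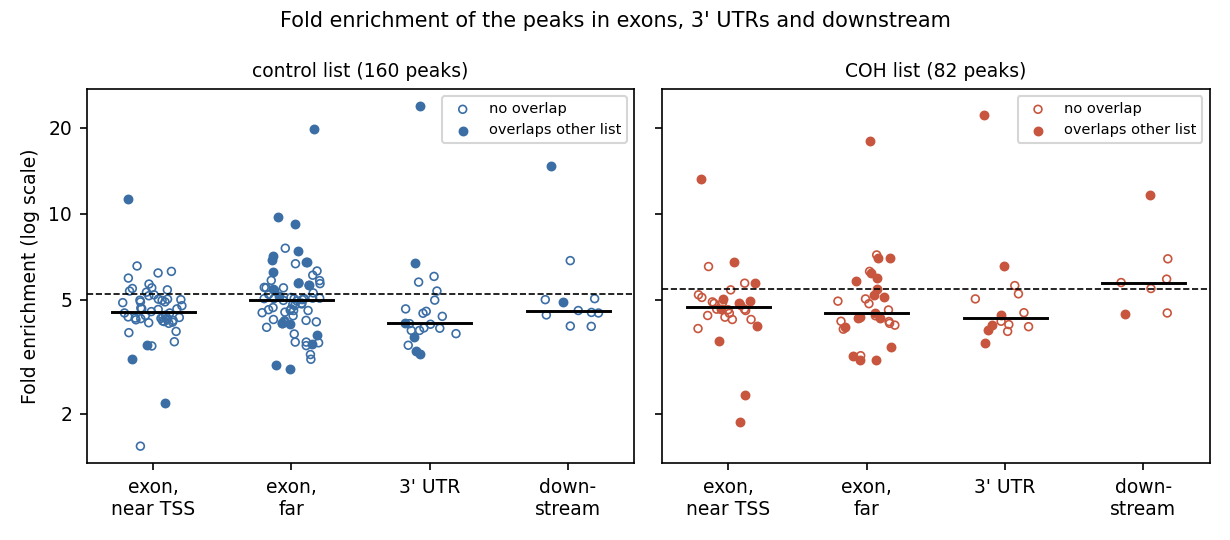
Fold enrichment of each peak (log scale) by annotation class, with exonic peaks split at 1000 bp from a TSS, in the control list (left) and the COH list (right); filled points overlap a peak of the other list, open points do not, short bars are medians and the dashed line is the median of the whole list (5.24 and 5.45). Medians lie under the dashed line in every class except downstream peaks in COH (5.75, 7 peaks), and the highest point in both panels is the 3' UTR peak assigned to Limd1.

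Over the whole lists, a smaller share of these peaks than of the others had a partner in the other library. With a stricter q limit the gap was within counting error. With equal numbers of the strongest peaks, where only the control list was cut, it was so in control but not in COH. A peak was counted as shared when it overlapped a peak of the other list by at least 1 bp, whatever the partner's class. In control 33 of 160 were shared (20.6%, 14.6 to 27.7), where 34.3% of all control peaks were. In COH 37 of 82 were shared (45.1%, 34.1 to 56.5), where 61.8% of all COH peaks were. The intervals do not reach the shares of the other peaks, 35.1% (33.3 to 36.8) in control and 62.7% (60.3 to 65) in COH. With a -log10 q of at least 5 in both lists, 35.8% (24.5 to 48.5) were shared in control against 38.9% of others, and 61.0% (44.5 to 75.8) in COH against 73.0%. Equal numbers of the strongest peaks by fold kept all 1711 COH peaks and cut the control list to its 1711 of highest fold. Control partners of low fold, such as those at Rn18s-rs5, were thus left out. Under that setting 35.3% (22.4 to 49.9) were shared in control against 46.5% of others. In COH 18 of 82 (22%, 13.6 to 32.5) were shared against 47.6%. By fold, the gap in control lay in the middle bins. From bin 2 to bin 4 in rising fold, 1 of 32, 3 of 35 and 3 of 17 were shared, against 20.9%, 27.9% and 36.5% of other peaks. In the lowest bin 14 of 61 (23.0%, 13.2 to 35.5) were shared against 18.9% of others, and in the highest 12 of 15 (80.0%, 51.9 to 95.7) against 69.2%, so there the share was not the lower one. The lowest bin also holds shared peaks of low fold and very high pileup, such as those at Rn18s-rs5 (991 and 698). In that bin 3 of 27 within 1000 bp of a TSS were shared (11.1%, 2.35 to 29.2) against 18.5% of others. Farther away 11 of 34 were shared (32.4%, 17.4 to 50.5) against 19.6%. In COH the shares from the lowest bin up were 48.6%, 26.3%, 36.4%, 60.0% and 80.0%, against 40.8%, 49.2%, 54.1%, 75.3% and 91.4% of other peaks. By pileup, 7 of 116 control peaks of up to 20 were shared (6.03%, 2.46 to 12) against 368 of 1934 others, and 16 of 57 in COH (28.1%, 17 to 41.5) against 49.5%.

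In control the shared part of the exonic peaks differed by the kind of host gene. Hosts were called protein-coding by the RefSeq table, and the other hosts were long non-coding RNAs, pseudogenes, small RNAs and transcripts that the table does not name. The 4 control peaks and 1 COH peak whose host the annotation leaves blank are in neither group. In control, 3 of 71 peaks in exons of protein-coding hosts were shared (4.23%, 0.88 to 11.9), and 21 of 52 in exons of other hosts (40.4%, 27 to 54.9). In COH the counts were 8 of 26 (30.8%, 14.3 to 51.8) and 20 of 34 (58.8%, 40.7 to 75.4), with intervals that overlap. The other hosts were thus near the shares of the whole lists, 34.3% and 61.8%, and the protein-coding hosts below them. Fold was not alike in the groups. In control its median was 4.53 (4.31 to 4.87) for protein-coding and 5.07 (4.65 to 5.62) for other hosts. In COH the medians were 4.87 (4.27 to 5.1) and 4.49 (4.31 to 5.04). Pileup differed as well. In control its median was 15 (range 10 to 59) for protein-coding and 19 (10 to 991) for other hosts. In COH it was 15.5 (9 to 49) and 18 (8 to 694). The part of pileup in the difference between hosts was not tested. In the highest fold bin of control, 8 of 9 peaks of other hosts and 0 of 1 of protein-coding hosts were shared. In bin 4 the counts were 3 of 10 and 0 of 3, in bin 3 2 of 11 and 1 of 20. In bin 2 they were 0 of 8 and 0 of 16, and in the lowest bin 8 of 14 and 2 of 31. Some of the other hosts lie in peak clusters or carry very high pileups. Without clustered peaks, peaks with a pileup above 100 and mitochondrial peaks, 13 of 43 other hosts (30.2%, 17.2 to 46.1) and 3 of 70 protein-coding hosts (4.29%, 0.893 to 12) were shared in control, and 12 of 26 (46.2%, 26.6 to 66.6) and 8 of 25 (32.0%, 14.9 to 53.5) in COH. The distance to a gene start differed too: 62.0% of the protein-coding group in control lay within 1000 bp of a TSS, and 19.2% of the other group. Among peaks farther away, 2 of 27 protein-coding hosts and 18 of 42 other hosts were shared in control, and 1 of 44 and 3 of 10 among nearer ones.

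**Figure D2:**
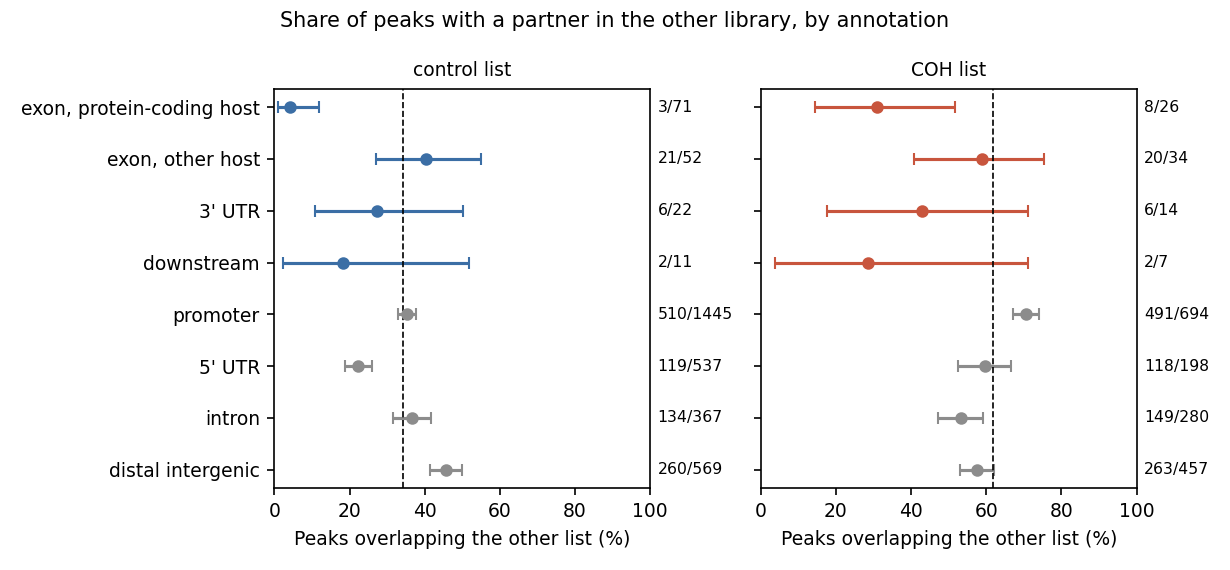
Share of peaks that overlap a peak of the other list, by annotation class, with exact 95% intervals and counts at the right; coloured points are the classes described here, grey points the other classes, and the dashed line is the whole list (34.3% in control, 61.8% in COH). In control, exons of protein-coding hosts have the lowest share, 3 of 71, and distal intergenic peaks the highest, 260 of 569.

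First exons dominated. Of 123 control exonic peaks with a named host, 88 lay in the first exon, 24 of them in transcripts with a single exon, while 23 lay in internal exons and 12 in the last of several. In COH 43 of 60 lay in the first exon, 14 of them in single-exon transcripts, 9 in internal and 8 in last exons. The host was also the gene assigned by nearest start for 71 of the 123 (57.7%, 48.5 to 66.6) and for 32 of the 60 (53.3%, 40 to 66.3). Counting 3' UTR and downstream peaks too, 36.9% (29.4 to 44.9) in control and 37.8% (27.3 to 49.2) in COH lay no more than 1000 bp from a TSS, where the whole lists had 61.6% and 51.1%.

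Within 1000 bp of a gene start lay 54 exonic peaks in control and 30 in COH. No promoter peak of either list began past the start, so the class itself places the exonic peaks beyond it, and their position is given as a description. Their summits lay a median of 467 bp past the start in control (quartiles 332 and 828) and 390 bp in COH (276 and 731). Promoter peaks within 1000 bp had medians of -32 and -67.5 bp, and 5' UTR peaks 309 and 356.5 bp. Only 4 of the 54 were shared in control (7.41%, 2.06 to 17.9), where 5' UTR peaks at like distance had 88 of 389 (22.6%, 18.6 to 27.1) and promoter peaks 495 of 1413 (32.5 to 37.6%). In COH 11 of 30 were shared (36.7%, 19.9 to 56.1), where 5' UTR peaks had 59.3% (51 to 67.3) and promoter peaks 70.7% (67.1 to 74.1). Median lengths in control were 403.5 bp for the exonic, 410 bp for the 5' UTR and 490 bp for the promoter peaks. Median folds in the same order were 4.52, 4.99 and 5.29 in control and 4.71, 5.02 and 5.44 in COH. The part of length and of fold in these shares was not tested.

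**Figure D3:**
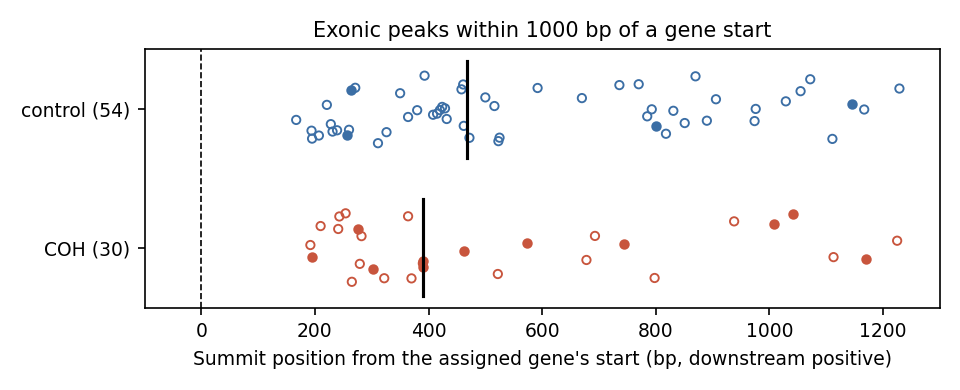
Position of the summit of each exonic peak that lies within 1000 bp of a gene start, in bp from the start of the assigned gene (positive is downstream), for 54 control and 30 COH peaks; filled points overlap a peak of the other list and black bars are medians (467 and 390 bp). The points run from 167 to 1229 bp in control and from 192 to 1225 bp in COH; the annotation class places them past the start.

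Among the hosts near their own start, some are given as examples. Nefm, the medium neurofilament chain of axons, had a control peak in exon 1 of 4, 243 bp past the start, with pileup 15 and fold 4.99. Pink1, a kinase that marks damaged mitochondria for removal, had one in exon 1 of 8 with a fold of 4.41. Eif4a2, an RNA helicase of translation initiation, had a fold of 5.21, and Plxnc1, a semaphorin receptor, 4.26. None of these 4 peaks had a partner in COH. Lrp8, a receptor for reelin, had a fold of 3.45, and Atxn2, an RNA-binding protein, 4.77, in exon 1 of 25. Single-exon hosts included Cldn5, a tight junction protein of vessel walls (pileup 17, fold 4.34), Cebpd, a transcription factor of inflammation (fold 4.18), and the orphan receptor gene Gpr135 (fold 5.37), again in control only. Of 50 control hosts near their own start, 2 had a further peak in the same list and 5 (10.0%, 3.33 to 21.8) had any peak in COH, where 38.2% of all control peaks belonged to a gene with a COH peak.

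In control, Msi1 was the only one of 44 peaks in exons of protein-coding hosts near a start that was shared, where 6 of 18 were in COH. It encodes Musashi-1, an RNA-binding protein of neural progenitors. Its peaks overlapped, with pileups of 20 (control) and 19 (COH) and folds of 3.49 and 4.64, beginning 204 bp and 234 bp past the start. The control peak was placed in exon 1 of 15 and the COH peak in exon 2. The lists place them at 115567862 to 115568535 and 115567892 to 115568288 on chromosome 5, in a build that is not settled.

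Of 23 COH hosts near their own start, 11 (47.8%, 26.8 to 69.4) had a control peak of any class, where 66.6% of all COH peaks belonged to a gene with a control peak. Zbtb7b, a transcription factor of T cell fate, had a COH peak with a pileup of 27 in exon 2 of 4 and an overlapping control peak of 35 in its 5' UTR. Wipi1, an autophagy protein, had 16 in exon 1 and 38 in the control 5' UTR peak. Laptm4a, a lysosomal membrane protein, had 15 in exon 1 and 12 in an overlapping control promoter peak. Of the 37 shared COH peaks, 20 met an exonic partner, 6 a 3' UTR, 2 a downstream, 6 a 5' UTR and 3 a promoter partner. Of the 33 shared control peaks, 20 met an exonic partner, 6 a 3' UTR, 2 a downstream, 3 a distal intergenic, 1 a promoter and 1 an intronic partner. Overlapping peaks thus did not always carry the same class. The highest fold among exonic COH peaks in protein-coding hosts was that of Cndp2, a dipeptidase, with pileup 18 and fold 6.81.

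Distances from unshared peaks to the other list were counted for these classes only, so no background stands beside them. They are given as a description. Of the 127 control peaks without a partner, 4 had a COH peak within 1000 bp and 22 within 100000 bp, and the median distance to the nearest was 340091 bp. Of the 45 COH peaks without a partner, 5 had a control peak within 1000 bp and 22 within 100000 bp. Megf9, a membrane protein with EGF-like repeats, had a control exon 1 peak 90 bp from a COH promoter peak of the same gene. Map3k1, a kinase upstream of JNK, had a COH exon 1 peak 414 bp from a control promoter peak. Nsd1, a histone methyltransferase, had a COH exon 1 peak 265 bp from a control peak in its 5' UTR. Dnmt3a, a DNA methyltransferase, had a control exon 1 peak with a pileup of 28 and a COH peak in an intron 1439 bp away with a pileup of 19.

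Most hosts of the peaks near a start had CpG-rich promoter windows. Promoter windows of 250 bases before to 50 after the start were taken from RefSeq for genes with 1 window, which 30 of 43 control and 10 of 18 COH hosts had. A window was called CpG-rich when its GC content was above 50% and its CpG count above 0.6 of that expected from its C and G content. Of the protein-coding hosts of exonic peaks near their start, 24 of 30 in control (80%, 61.4 to 92.3) and 8 of 10 in COH were CpG-rich, where 44.4% of all 14730 protein-coding genes were. Genes with 5' UTR peaks near the start had 79% in both lists, and genes with promoter peaks 90.3% in control and 90.4% in COH. The hosts of the remaining exonic peaks in control had 7 of 15 (46.7%, 21.3 to 73.4). The letters GGGCGG, on either strand, stood in 24 of the 30 control windows (80%, 61.4 to 92.3) and in 45.3% of all, CCAAT, on either strand, in 16 of 30 (53.3%, 34.3 to 71.7) and 39.6%, and TATAAA, on either strand, in 2 of 30 and 14.3%. In COH the 10 windows held GGGCGG in 6, CCAAT in 3 and TATAAA in 1. Control genes with 5' UTR and promoter peaks near the start held GGGCGG in 76.3% and 82.7%, and CCAAT in 37.1% and 43.8%. These windows lie before most of the peaks, whose own sequence was not used here.

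Other peaks lay in internal and last exons of protein-coding genes. In control 0 of 17 in internal exons (interval up to 19.5%) and 2 of 6 in last exons were shared, against 1 of 42 in first exons of several. In COH the counts were 2 of 6, 2 of 3 and 3 of 16. Phf19, a Polycomb protein, had the highest fold of the control peaks in exons of protein-coding genes (6.69, pileup 34), in exon 6 of 15, while Sfi1, Ahnak2 and Clec11a had higher pileups. It had no COH partner. Itgad, an integrin chain, had one in exon 27 of 31 (fold 4.24) and Phc2, another Polycomb protein, in exon 6 of 15 (3.56). Gabrb1, a GABA-A receptor subunit, had a control peak in exon 4 of 8 with a pileup of 11. In COH, Slc43a2, an amino acid transporter, had one in exon 13 of 14 (fold 4.14) and Gdf15, a stress-induced cytokine, in exon 2 of 2 (4.95). Both last-exon pairs shared by the lists were in Clec11a, a growth factor of the C-type lectin family, and Ahnak2, a large scaffold protein. Clec11a had pileups of 38 (control) and 28 (COH) in exon 4 of 4, and Ahnak2 52 and 28 in exon 7 of 7. Both were lower in COH, as were most pairs.

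Exons of hosts that the RefSeq table does not call protein-coding were more often shared than those of protein-coding hosts in these counts. The table does not name the host of 17 control and 12 COH peaks, the mitochondrial genes among them, so these need not be non-coding. Among long non-coding hosts 8 of 19 control peaks (42.1%, 20.3 to 66.5) and 9 of 15 COH peaks (60.0%, 32.3 to 83.7) were shared, and among pseudogene hosts 6 of 12 and 4 of 6. Over the whole lists 34.3% of control and 61.8% of COH peaks were shared, so the long non-coding shares are near the background. Exon 1 of 1810059C17Rik, a transcript near Mllt10 that the RefSeq table does not name, had pileups of 40 (control) and 17 (COH), the lowest COH to control ratio among pairs within these classes (0.425), with folds of 9.75 and 5.47. Exon 1 of 1700028E10Rik had pileups of 18 and 15 and exon 3 of D130052B06Rik 19 and 20. The other pairs in exons of such hosts had 35 and 26 (1700096K18Rik), 29 and 17 (6720427I07Rik), 20 and 12 (Gm26901), 22 and 12 (2810410L24Rik) and 23 and 22 (Gm15433). Among the strongest control peaks, that of Gm6787, near Was, had a fold of 9.24. That of Gm25350, in a peak cluster and 250426 bp from the start of Snurf, had one of 7.10. Each overlapped a COH peak. Snhg14, the long transcript of the imprinted Snurf region that hosts small nucleolar RNAs, carried a pair in its exon 3 (pileups 55 and 60) and another in exon 1 (22 and 23). Mir124a-1hg, the host of a neuronal microRNA, had overlapping peaks in exon 1 (22 and 17), at -59534 bp from the start of Kif13b in control and -59343 bp in COH. The U3 small nucleolar RNA genes gave peaks at different copies. Snord3b4 (pileup 19, fold 7.58) and Snord3b1 (14, 4.18) had control peaks, and Snord3b3 (22, 7.18) had a COH peak 5034 bp from that of Snord3b1. They belong to a multigene family, and how reads that match several were placed is not given in the sources used here.

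Pileups above 100 were found for 12 of these peaks in control, 11 of them shared, and for 9 in COH, all 9 shared. Other peaks of that height were shared in 44 of 45 and 39 of 39, so these shares are at the background. At Rn18s-rs5, a ribosomal RNA-related sequence, 2 adjacent peaks had pileups of 991 and 698 in control and 694 and 492 in COH, with folds of only 2.87 and 2.18, and 3.07 and 2.32. The downstream peak near Gm10800 had 2045 and 2236 with folds of 4.92 and 4.46. Gm10715 and Gm11168, at the start of chromosome 9, had 242 and 333 in control and 306 and 393 in COH. The stretch of chromosome 11 around Sfi1, Pisd-ps1 and Gm11400 held 6 control and 5 COH peaks of these classes. On the mitochondrial genome 1 exonic peak was called in each library, in mt-Co1 in control and mt-Nd5 in COH. These had the lowest fold of their lists, 1.54 and 1.87. Both were counted with the hosts that the RefSeq table does not name.

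The highest fold of all these classes belonged to a 3' UTR peak. It was assigned to Limd1, a LIM domain scaffold protein, at -16528 bp from that gene's start and thus outside it, and the gene that owns the 3' UTR is not named in the annotation. Its pileup was 205 in control and 147 in COH, its folds 23.82 and 22.2 ranked 13 of 3078 and 15 of 1711, and the summits lay 3 bp apart. The other 3' UTR peaks were weaker: the median fold was 4.13 (3.91 to 4.65) over 21 in control and 4.21 (3.93 to 5.25) over 13 in COH. Of all 3' UTR peaks, 6 in each list were shared (27.3%, 10.7 to 50.2, and 42.9%, 17.7 to 71.1). These were the peaks assigned to Limd1, Gm11400, Sfi1, Pisd-ps1, H1f8 and Sox12. Sox12, a transcription factor of the SoxC group, had pileups of 26 and 20, and its peak lay inside the gene. H1f8, an oocyte linker histone, had pileups of 20 and 16, with the peak at -5416 bp from its start in control.

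Unshared 3' UTR peaks were assigned to genes of many roles. In control they included Ago1, an Argonaute protein of microRNA silencing (fold 4.65), Arpp21, a neuronal phosphoprotein (4.13), Gbx2, a homeobox factor (4.56), Tmem215 (4.99), Sft2d3 (5.77), Rpe (5.37), Rpl31-ps5 (6.04) and Flvcr1, a heme and choline transporter (3.99). Spaca6, Siglech, Sh3tc1, Get4, Spag4, Pex5, Prr18 and Gpaa1 completed the 16, with folds from 3.47 for Gpaa1 to 4.49 for Spaca6. In COH the 8 were assigned to Cyp4f14 (5.61), Kdm3b, a histone demethylase (5.25), Npbwr1, a neuropeptide receptor (5.04), Anpep, an aminopeptidase (4.51), Gm45475 (4.21), Ttbk1, a tau kinase (4.10), Gm8444 (4.03) and Cluh (3.88). The assigned gene need not own the 3' UTR. Only 14 of 22 peaks in control and 5 of 14 in COH lay inside the span of the gene given. Of these, 7 and 3 had a summit within 5000 bp of its end. Some lay near the start instead, as at Rpe (123 bp past it), Flvcr1 (559 bp), Sft2d3 (612 bp), Siglech (662 bp) and Spag4 (742 bp).

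The downstream peaks were 11 in control and 7 in COH, and 2 sites were shared. One was assigned to Gm3005, at -26003 bp from its start, with pileups of 76 and 60 and folds of 14.72 and 11.65, and the other was that near Gm10800. Bhlhe41, a repressor of the circadian clock, had a control peak past its end with pileup 23 and fold 5.01. It had a COH peak of the same pileup in its promoter, 9430 bp away. The other control sites were assigned to Ighv8-1 (fold 6.86), Olfr1166 (5.05), Gm7871 (4.59), Zscan4e (4.52), Gm11694 (4.50), Gm48731 (4.43), Ifna13 (4.05) and Gm19611 (4.04). In COH they were assigned to Gm8297 (6.96), Ppfia4, a presynaptic scaffold protein (5.91), Gm18407 (5.75), Gm17823 (5.48) and Rnase12 (4.50). None of the COH sites of this group other than the shared ones lay within 10000 bp of a control peak.

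In 28 overlapping pairs both peaks belonged to these classes, 20 in exons, 6 in 3' UTRs and 2 downstream. Their summits lay a median of 65.5 bp apart, where all 1060 overlapping pairs of the lists had 71 bp. The COH pileup was the lower one in 21 pairs and the higher in 7, and the median ratio of COH to control was 0.781, with a range from 0.425 to 1.26. Over all 1060 pairs the median ratio was 0.852 and the COH pileup was lower in 70.1%, so the 75% seen here is near the background. The scaling of the pileup between libraries is not stated, and a ratio is a description of 2 libraries. The 7 pairs with a higher COH pileup were at Gm10715, Gm11168, Gm10800, D130052B06Rik, both Snhg14 exons and the 3' UTR site near Pisd-ps1. The site of the highest fold among exonic peaks, in a host without a name, assigned to Txndc11 at -9270 bp from its start, had 112 in control and 79 in COH with folds of 19.83 and 17.98.

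**Figure D4:**
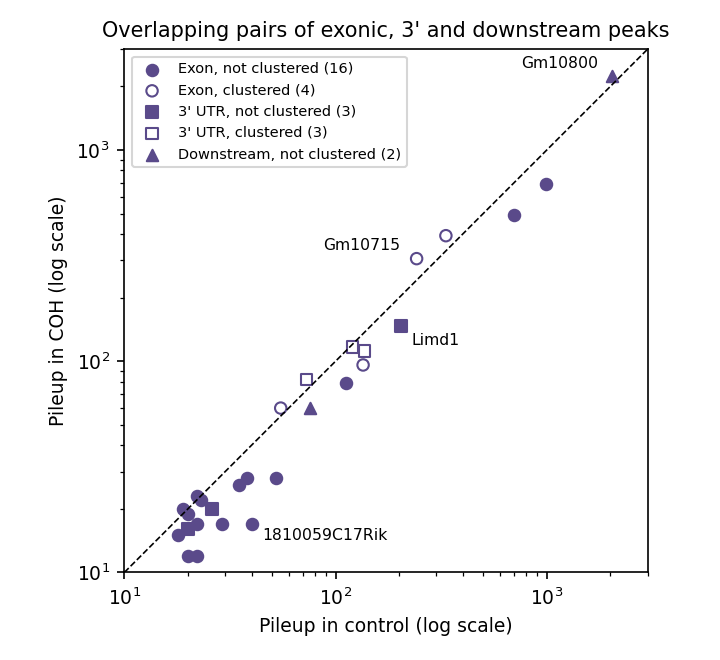
Pileup in control against pileup in COH (both log scale) for the 28 overlapping pairs in which both peaks are exonic, 3' UTR or downstream; open symbols are clustered pairs (a window of 100 kb with 5 or more peaks of the list) and the dashed line marks equality. Of the pairs, 21 lie below the line, and the lowest ratio is that of 1810059C17Rik with 40 and 17.

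Genes of the pathway lists appeared in these classes in small numbers, and as the classes hold 5.2% and 4.79% of the lists, such counts say little on their own. Of 77 genes listed for axon guidance, growth and injury, 0 hosted or were assigned such a peak in either library. Of these genes 16 had some control peak and 11 some COH peak. The list is not complete: Plxnc1, the semaphorin receptor with a control exonic peak named above, is not on it. Rac1 had no peak, and Kif2a, a kinesin gene, had 1 control peak, of another class. Of 83 microtubule, kinesin and neurofilament genes, Nefm and Kif13b appeared in control and Dync1h1, Kif13b and Ttbk1 in COH, where 14 and 8 genes were assigned some peak. Dync1h1, the dynein heavy chain, was assigned a COH peak at -9499 bp from its start, in the exon of B930059L03Rik (fold 4.20). Of 79 chromatin regulators, Dnmt3a appeared in control and Nsd1 and Chd2, a chromatin remodeller, in COH, with some peak at 38 and 25. The Chd2 peak lay in exon 1 of Chaserr, a long non-coding RNA next to it, with pileup 16 and fold 6.29. Of 63 splicing and RNA-binding genes, Celf2 hosted a control peak in exon 1 of 14 (fold 4.51), and 23 in control and 11 in COH were assigned some peak. Of 41 immediate early and clock genes Bhlhe41 was assigned a control peak, and 18 and 17 had some peak.

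Few markers of retinal cell types appeared in these classes, and no share over all genes stands beside the counts. Of 31 rod and cone genes, 0 appeared in these classes, and 1 had a peak of any class in each library. Of 38 ganglion, bipolar, amacrine and horizontal cell genes, Nefm and Tfap2a, an amacrine cell factor assigned a peak 15067 bp from its start, appeared in control and 0 in COH, with some peak at 4 and 2. Of 34 glial, vascular and pigment epithelium genes, Cldn5 appeared in control and 0 in COH, with some peak at 6 and 2. Only peaks that passed the caller's threshold are listed, so a missing peak does not show absence of binding.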

How the data were processed

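CUT&Tag libraries, amplified with 15 PCR cycles per the labels, came from 2 retinal samples. The submitters' processing notes name cutadapt 1.9.1, Bowtie2 and mm9 without a role. Which caller was run, whether a background library entered, and how duplicate or multiply placed reads were handled is not given in the sources used here. The peaks of a list are treated as those of 1 library. The authors deposited a pileup, a signal whose scaling is not stated, and a fold ratio over background. They also deposited -log10 p and -log10 q values, under 2 headings lost to a spreadsheet error, and those columns were identified by their values. Positions, distances to the TSS and annotation (other values) are the authors', per the file headers. Depth is unknown. The smallest -log10 q values in the control and COH lists were 2.00 and 1.82.

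Overlap was at least 1 bp. Shares have exact Clopper-Pearson 95% intervals and medians order-statistic 95% intervals. Without molecular identifiers, PCR copies cannot be told from separate molecules. Start sequences were printed only for hosts with 1 promoter window that are not on chromosome 18. Clustered peaks share a window of 100 kb with at least 5 peaks of their list. RefSeq (GRCm38.p6) matched 136 of 161 hosts. Its coordinates were not combined with those of the lists: of 254 genes of equal length in both, 244 started elsewhere, so the build of the lists is not settled. The rule for named genes took the 10 peaks of highest fold per list, pairs within these classes, 3' UTR and downstream peaks, genes with several such peaks, genes of the 9 lists, Rac1, Kif2a and the 5 most extreme exon positions or counts. Mir210, Acot2, Kbtbd13, Psmd11, Ntan1, Pink1, Eif4a2, Lrp8, Cebpd, Gpr135, Zbtb7b, Wipi1, Laptm4a, Megf9, Map3k1, Phf19, Phc2, Gabrb1, Slc43a2, Gdf15 and the mitochondrial genes were chosen after their values were seen. A gene under this rule and 1 list are not reported here. Members and lists were chosen with earlier results of these data known. Overlap and cluster steps were tested on simulated data (Python 3.11.15, pandas 2.3.3, scipy 1.17.1).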

Additional observations from a re-analysis of the deposited data

How the results depend on the processing

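With 1 library per group no replicate could be left out. No paired analysis was possible because each group holds 1 library. Of 54 alternatives to 10 results, 41 stayed within counting error (counts within 1.5 times). Requiring a -log10 q of at least 5 left 67 control and 41 COH peaks, raised the shared part to 35.8% and 61% and raised the median fold to 5.48 and 5.19. Peaks farther than 1000 bp from a TSS numbered 101 and 51, the shared part in control was then 28.7%, and the host was the assigned gene for 20.8% in control and 17.6% in COH. With equal numbers of the strongest peaks, which cut only the control list, 35.3% of control and 22% of COH peaks were shared. All peaks had 38.8% and 72.5% under the first of these settings, 39.3% and 56.0% under the distance limit and 46.2% and 46.3% under equal numbers. Removing mitochondrial peaks and pileups above 100 was chosen after seeing the data and gave 14.9% and 35.6%. Small classes, such as 7 downstream COH peaks, have wide intervals, and the unknown depth limits every count.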
